A study of Mus musculus with 41 samples.

Results

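Skeletal muscle genes were followed through dissected subcutaneous adipose tissue (SAT) of newborn mice, array by array. The set held 40 genes of 19057 named on the array, taken by gene symbol from a list of sarcomere proteins, calcium-handling proteins, muscle energy enzymes and myogenic regulators. In the probe annotation 38 of the 40 had a probe of their own, 69 probes in all, and Myh3 and Cacna1s were not listed there. A probe counted as measured in SAT if all control arrays or all metformin arrays detected it (detection p under 0.05), and 31 of the 38 genes had such a probe. The other 7, Myh4, Myh7, Tnni1, Casq1, Myod1, Neb and Trim63, are described by their detection below.

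The mice were C57/BL6NHsd, and all tissues were taken at postnatal day 4. SAT and liver came from male offspring of dams kept on a high fat diet (HFD) before and during the gestation, and both groups shared that diet. The dams received metformin by mouth during the gestation (metformin group) or vehicle (control group), which left 6 control and 5 metformin SAT arrays and 6 liver arrays of each group. Liver of male and female offspring and brain of male offspring of dams on a regular diet (RD), with and without metformin, gave 3 arrays a group. SAT RNA was extracted with another kit than liver and brain RNA. The animals carry codes in the labels: the codes 1R and 1T hold control animals only and the codes 10K and 3R metformin animals only, so that code and treatment cannot be told apart.

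Skeletal muscle fibres are built of repeating sarcomeres, in which thick filaments of myosin pull on thin filaments of actin, troponin and tropomyosin when calcium leaves the sarcoplasmic reticulum. Fast and slow fibres carry different isoforms of most of these proteins, and muscle of newborn mice still makes embryonic and neonatal myosins. Adipocytes make few of these proteins, and subcutaneous fat lies against body wall muscle and the thin muscle sheet of the skin, so that a piece of dissected fat can include muscle.

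Adipoq, the adipocyte hormone adiponectin, lay between 13.63 and 14.76 on the log2 intensity scale on all 11 SAT arrays. Other adipocyte hormones were less even. Lep, leptin, was 6.88 on the control array 1T-1 and between 9.82 and 12.29 on the other arrays. Retn, resistin, was 4.52 on 1T-1 and between 5.51 and 7.67 on the others. Between 40.6% and 43.4% of the array's 45281 probes were detected on 9 of the 11 SAT arrays, but 29.9% and 31.5% on the control arrays 1R-4 and 1T-1. The control array 1T-3, with 41.5% of the probes detected, was not of this kind. All levels below are log2 intensities after background correction and quantile normalization over the 41 arrays of the series. A level belongs to its own probe and is not compared between genes.

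The regulatory sequence of the set is shown for reference, and its part in the levels on the arrays was not tested. The 250 bases before the transcription start were read from RefSeq promoters of GRCm38.p6, which matched 33 of the 40 members with 39 entries. The E-box CAGCTG, the core bound by myogenic factors such as MyoD and a form of the general E-box CANNTG, stood in 48.7% of the members' entries and in 13% of 32851 entries of all genes, on either strand. CANNTG stood in 84.6% against 66.2%, the MEF2 motif in 15.4% against 1.69%, the serum response factor's CArG box in 10.3% against 1.47%, and TATAAA in 20.5% against 12.4%. Acta1 and Pgam2 are printed because they hold CAGCTG together with a CArG box or a MEF2 motif, Mylpf because it had the highest fold change in SAT and Tnnc1 because it had the lowest. Myh4 held CAGCTG, a MEF2 motif and a CArG box as well, but it was not measured in SAT and is not printed. Capitals mark CAGCTG, MEF2 motifs and CArG boxes, the sequences run 5′ to 3′ in the direction of the gene, and a match is only a match of letters.
Acta1, chr8:123894776-123895025, minus strand: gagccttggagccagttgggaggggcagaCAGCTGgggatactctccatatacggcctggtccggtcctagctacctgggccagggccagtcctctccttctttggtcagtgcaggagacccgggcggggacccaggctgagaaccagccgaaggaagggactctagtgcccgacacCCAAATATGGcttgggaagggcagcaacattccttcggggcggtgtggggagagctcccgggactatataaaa
Pgam2, chr11:5803797-5804046, minus strand: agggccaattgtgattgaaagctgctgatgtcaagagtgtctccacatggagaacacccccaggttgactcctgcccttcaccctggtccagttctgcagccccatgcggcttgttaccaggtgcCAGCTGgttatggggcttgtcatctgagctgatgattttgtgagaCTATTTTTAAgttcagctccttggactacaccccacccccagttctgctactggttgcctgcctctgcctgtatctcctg
Mylpf, chr7:127211358-127211607, plus strand: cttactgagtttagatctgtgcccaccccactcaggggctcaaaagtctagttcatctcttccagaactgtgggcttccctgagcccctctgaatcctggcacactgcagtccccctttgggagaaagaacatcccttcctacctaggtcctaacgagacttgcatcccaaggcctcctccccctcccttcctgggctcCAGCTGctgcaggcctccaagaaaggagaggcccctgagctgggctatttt
Tnnc1, chr14:31208062-31208311, plus strand: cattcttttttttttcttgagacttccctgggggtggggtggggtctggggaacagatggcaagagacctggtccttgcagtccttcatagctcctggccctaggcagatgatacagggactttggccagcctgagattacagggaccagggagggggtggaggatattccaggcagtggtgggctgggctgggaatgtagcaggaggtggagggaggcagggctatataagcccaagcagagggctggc
The Tnnc1 window held none of the capitalised motifs. Those of the measured members Tnnt1, Myog, Myl4, Ryr1, Eno3, Actn2, Mybpc2 and Tnnc2 held none either. Their log2 fold changes in SAT ran from -0.62 for Tnnt1 to 2.19 for Tnnc2. CAGCTG also stood before Mb, with a log2 fold change of 0.05. A link between motifs and fold changes was not tested.

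The 31 measured members did not lie at one level in SAT but at widely different levels from one control animal to the next. On the control arrays the mean of the 31 members was 10.95 on 1R-1, 10.32 on 1T-2 and 10.12 on 1T-4, against 7.33 on 1T-1, 6.86 on 1T-3 and 5.96 on 1R-4. On the metformin arrays it was 9.65 on 10K-2, 10.07 on 3R-1, 10.48 on 3R-2, 9.29 on 3R-5 and 10.38 on 3R-6. The metformin arrays thus lay inside the range of the controls, next to the 3 high controls, and no metformin array came near the 3 low controls. In bulk tissue, a smaller amount of muscle and less of these transcripts per muscle fibre cannot be told apart.

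The low arrays were the same in nearly every member, whereas the order of the other arrays differed between members. The controls 1R-4 and 1T-3 were among the 3 lowest of the 11 arrays for 31 of 31 members and 1T-1 for 30 of 31. The control 1R-1 was the highest array for 16 members and the metformin array 3R-2 for 11. The spread over the controls was wider than that over the metformin arrays for 31 of 31 members, against 80.1% of the 9360 genes measured in SAT. The median range over the 6 controls was 5.38 for the members and 0.93 for all genes, and over the 5 metformin arrays 1.36 and 0.53. A member detected on all metformin arrays but not on all controls passed the filter with part of this spread built in. The 14 members that passed through both groups had a median range of 6.43 over the controls and 1.32 over the metformin arrays, wider over the controls for 14 of 14, against 0.80 and 0.50 and 76.8% of the 7177 genes that passed in this way.

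**Figure D1:**
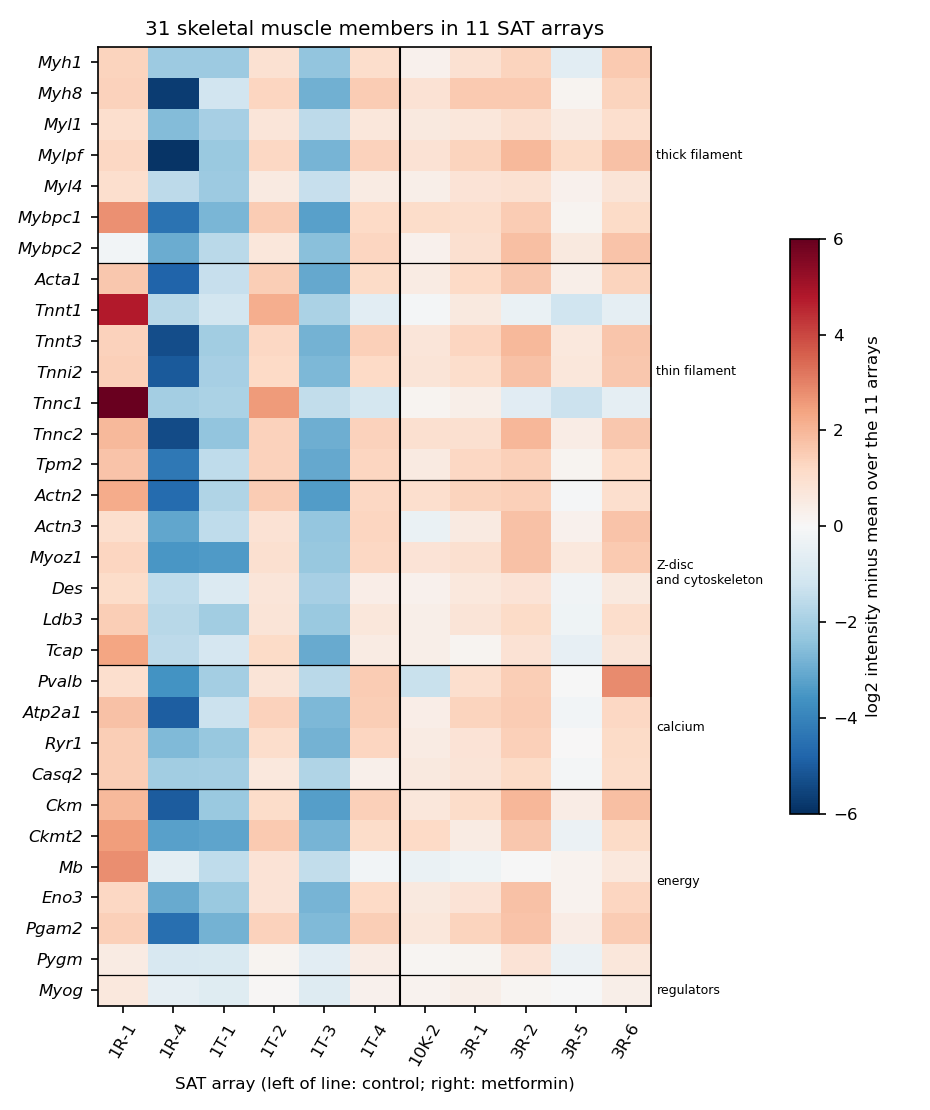
Level of each of the 31 measured members (rows, grouped by role) on each of the 11 SAT arrays (columns), as log2 intensity minus the member's mean over the 11 arrays. The control arrays 1R-4, 1T-1 and 1T-3 are blue in nearly every row, whereas Tnnt1, Tnnc1 and Mb are darkest red on the control array 1R-1.

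Among the thick filament genes, Mylpf, the regulatory light chain of fast fibres, had the largest fold change of the set. Its levels on the control arrays ran from 6.25 over a median of 11.63 to 13.52, and on the metformin arrays they were 13.02, 13.45, 14.07, 13.29 and 13.87. The controls 1R-4, 1T-1 and 1T-3 were low, and the other 3 controls overlapped with the metformin arrays. The log2 fold change, metformin over control, was 2.58 ± 1.14 (SE, n = 6 and 5; limma adjusted p = 0.289). Myl1, the essential light chain of fast fibres, lay between 11.83 and 15.45 on the controls, with a median of 14.01, and at 15.05, 15.15, 15.42, 14.95 and 15.47 on the metformin arrays. Its groups overlapped through the same 3 controls, and its log2 fold change was 1.38 ± 0.63 (limma adjusted p = 0.298).

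Myosins of early life were measured as well. Myh8, the neonatal (perinatal) myosin heavy chain, lay between 7.38 and 14.57 on the controls, with a median of 13.14, and at 13.92, 14.61, 14.61, 13.23 and 14.41 on the metformin arrays, a log2 fold change of 2.02 ± 1.14 (limma adjusted p = 0.380). Myl4, the light chain of embryonic and atrial muscle, lay between 8.23 and 11.42 on the controls and between 10.64 and 11.31 on the metformin arrays (1.14 ± 0.53, limma adjusted p = 0.312). Both were detected on all 11 arrays, also on the 3 low controls. Myh1, the heavy chain of adult fast IIx fibres, was detected on 3 of 6 controls and on all 5 metformin arrays, with levels up to 8.50 and 8.72. The adult IIb chain Myh4 was detected on 1 of 6 control and 2 of 5 metformin arrays and the slow chain Myh7, at its brightest probe, on 2 of 6 and on none, so that neither had a test in the model of the 11 SAT arrays.

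Of the myosin-binding proteins, Mybpc2, the fast form of myosin-binding protein C, had the smallest p of all members. It lay between 4.56 and 8.83 on the controls, with a median of 6.64, and at 7.82, 8.50, 9.35, 8.12 and 9.25 on the metformin arrays. The highest control, 1T-4, lay above 3 of the 5 metformin arrays, and the log2 fold change was 1.96 ± 0.71 (limma unadjusted p = 0.0167, adjusted p = 0.232). Mybpc1, the slow form, lay between 4.44 and 11.62 on the controls and between 9.06 and 10.40 on the metformin arrays (1.83 ± 1.16, limma adjusted p = 0.425).

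Among the thin filament genes, Acta1, the actin of skeletal muscle, was detected on all 11 arrays. On the control arrays it was 14.59 on 1R-1, 14.43 on 1T-2, 14.09 on 1T-4, 11.57 on 1T-1, 9.90 on 1T-3 and 8.16 on 1R-4. On the metformin arrays it was 13.47 on 10K-2, 14.15 on 3R-1, 14.57 on 3R-2, 13.31 on 3R-5 and 14.30 on 3R-6. The highest array was thus a control, and the 3 lowest arrays were also controls. The log2 fold change was 1.84 ± 1.05 (limma adjusted p = 0.385), and the standard deviation was 2.69 over the controls and 0.54 over the metformin arrays.

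The fast troponins, which hold the calcium switch of the thin filament, followed the same order. Tnnt3, fast troponin T, lay between 4.71 and 11.43 on the controls, with a median of 9.58, and at 10.71, 11.31, 11.96, 10.64 and 11.68 on the metformin arrays (2.29 ± 1.09, limma adjusted p = 0.318). Tnni2, the inhibitory fast troponin, lay between 7.39 and 13.83 with a median of 12.02, and at 13.21, 13.49, 14.18, 13.11 and 14.03 (2.17 ± 1.03, limma adjusted p = 0.317). In both genes the groups overlapped, with 3 controls low and 3 among the metformin arrays. Tnnc2, the calcium-binding fast troponin, had values from 6.99 to 14.28 on the controls and from 12.82 to 14.35 on the metformin arrays (2.19 ± 1.16, limma adjusted p = 0.358). The beta tropomyosin Tpm2, which lies along the actin filament, had values from 6.44 to 12.44 and from 10.88 to 12.15, a log2 fold change of 1.66 ± 1.00 (limma adjusted p = 0.408), but its dimmer probe, detected on all 11 arrays too, gave 0.25 ± 0.21.

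The slow troponins had another order of the arrays. Tnnc1, slow and cardiac troponin C, was 12.91 on 1R-1, 9.50 on 1T-2, 5.91 on 1T-4, 5.48 on 1T-3, 5.08 on 1T-1 and 4.93 on 1R-4, against 7.10 on 10K-2, 7.31 on 3R-1, 6.26 on 3R-2, 5.68 on 3R-5 and 6.42 on 3R-6. The control array 1R-1 alone stood far above all others, and 1T-4, which was high in Acta1 and Mylpf, was low here. The log2 fold change was -0.75 ± 1.25 (limma adjusted p = 0.776), the lowest of the set. Tnnt1, slow troponin T, lay between 5.94 and 12.60 on the controls, with a median of 6.97, and at 7.70, 8.40, 7.44, 6.65 and 7.30 on the metformin arrays. It was again highest on 1R-1 and then on 1T-2, at 10.02, and its log2 fold change was -0.62 ± 1.03 (limma adjusted p = 0.775). Without 1R-1 both signs turned, to 0.38 for Tnnc1 and 0.28 for Tnnt1. Tnni1, the inhibitory slow troponin, was detected only on the controls 1R-1 and 1T-2, at 7.91 and 5.55, and on none of the metformin arrays.

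**Figure D2:**
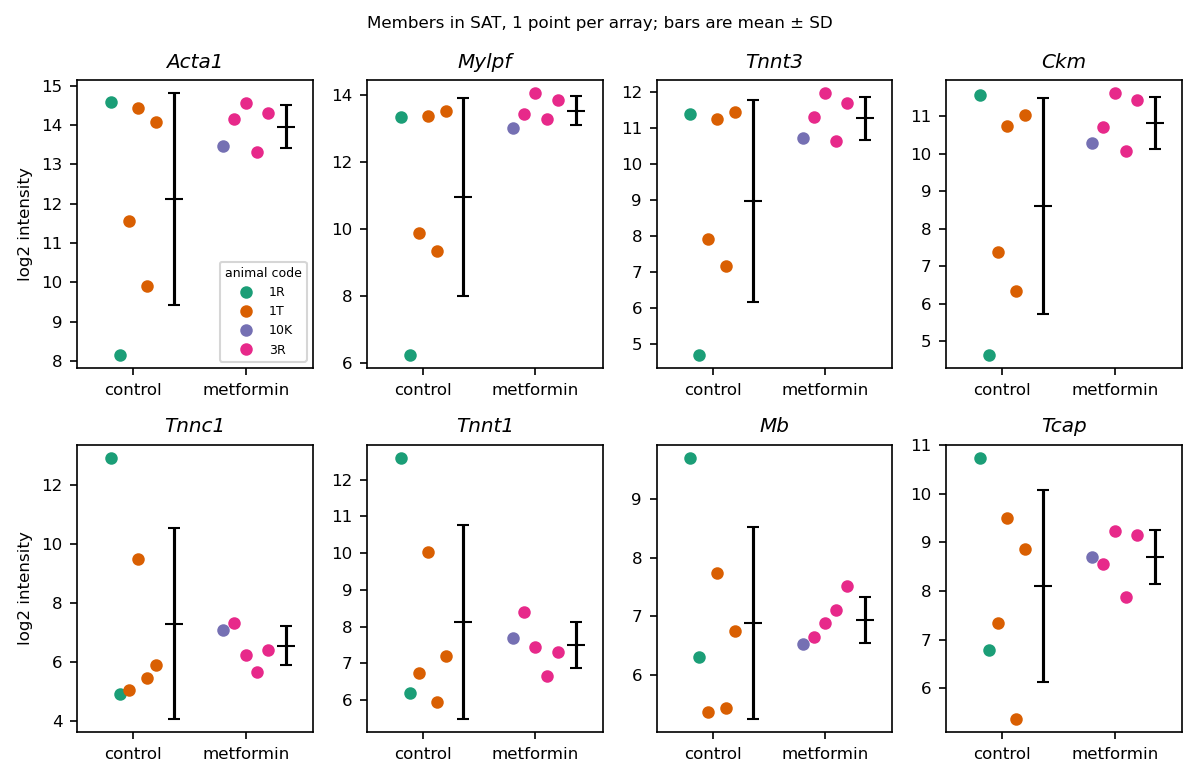
Log2 intensity of 8 members on each SAT array (points, coloured by animal code), with mean ± SD beside each group (6 control and 5 metformin arrays). In Acta1, Mylpf, Tnnt3 and Ckm 3 controls lie below all metformin arrays and 3 among or above them, whereas in Tnnc1 and Tnnt1 the 2 controls 1R-1 and 1T-2 lie above all metformin arrays.

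The genes of the Z-disc, which anchors the thin filaments, and of the cytoskeleton had positive fold changes in 6 of 6 cases, and none passed the adjusted threshold. Myoz1, a calcineurin-binding Z-disc protein of fast fibres, lay between 4.34 and 9.09 on the controls, with a median of 7.16, and at 8.62, 8.76, 9.60, 8.44 and 9.39 on the metformin arrays (2.09 ± 0.92, limma adjusted p = 0.288). Here too the groups overlapped through the controls 1R-1, 1T-2 and 1T-4. The actin cross-linkers Actn2 and Actn3 had log2 fold changes of 1.74 ± 1.11 and 1.41 ± 0.81 (limma adjusted p = 0.427 and 0.387). Tcap, which caps titin, was 10.74 on 1R-1 and 5.36 on 1T-3, with the metformin arrays between 7.87 and 9.24 (0.60 ± 0.78, limma adjusted p = 0.705). Ldb3, a Z-disc scaffold, gave 1.12 ± 0.67 at its brightest probe (limma adjusted p = 0.406) but 0.00 and 0.10 at its 2 dimmer measured probes.

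Des, the intermediate filament desmin, which smooth muscle also makes, had a narrower spread than the sarcomere genes. It lay between 7.25 and 10.32 on the controls, with a median of 9.05, and at 9.49, 9.87, 10.06, 9.03 and 9.82 on the metformin arrays. The controls 1R-4, 1T-1 and 1T-3 were again below all metformin arrays and the 3 others among or above them (0.77 ± 0.51, limma adjusted p = 0.450). Neb, the giant protein nebulin of the thin filament, was detected on 2 controls and on none of the metformin arrays.

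Among the calcium-handling genes, Atp2a1, the calcium pump of fast fibres, lay between 5.77 and 12.45 on the controls, with a median of 10.77, and at 11.12, 12.03, 12.23, 10.53 and 11.98 on the metformin arrays. The controls 1R-4, 1T-1 and 1T-3 lay below all metformin arrays, and 1R-1 above all of them (1.59 ± 1.07, limma adjusted p = 0.455). Ryr1, the calcium release channel, was detected on 3 of 6 controls and on all metformin arrays, with 1.44 ± 0.84 (limma adjusted p = 0.390). Casq2, the calsequestrin of slow and cardiac muscle, was 7.98 on 1R-1 and at most 7.64 on the metformin arrays, with 3 of 6 controls undetected (1.27 ± 0.63, limma adjusted p = 0.337). Casq1, the fast calsequestrin, was detected on 3 arrays of each group, from 4.34 to 6.30 on the controls and from 4.71 to 6.31 on the metformin arrays. Pvalb, the calcium buffer parvalbumin of fast fibres, varied most within the metformin group, from 7.31 on 10K-2 to 11.48 on 3R-6 (1.45 ± 0.95, limma adjusted p = 0.438).

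The energy genes had their highest control on 1R-1 in 5 of 6 cases. Ckm, the cytosolic creatine kinase of muscle, lay between 4.63 and 11.57 on the controls, with a median of 9.06, and at 10.28, 10.70, 11.61, 10.07 and 11.42 on the metformin arrays. The controls 1R-4, 1T-1 and 1T-3, at 4.63, 7.38 and 6.33, were below all metformin arrays and the others among them (2.21 ± 1.13, limma adjusted p = 0.346). Pgam2 and Eno3, the glycolytic mutase and enolase of muscle, had log2 fold changes of 2.09 ± 1.05 and 1.72 ± 0.83 (limma adjusted p = 0.337 and 0.320), and Pygm, muscle glycogen phosphorylase, of 0.51 ± 0.32 (limma adjusted p = 0.425). Ckmt2, the mitochondrial creatine kinase, was 10.52 on 1R-1 and between 7.66 and 9.60 on the metformin arrays (1.49 ± 1.05, limma adjusted p = 0.473).

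Mb, the oxygen store myoglobin of oxidative fibres, had its highest levels on 1R-1 and 1T-2, as the slow troponins had. It was 9.70 on 1R-1, 7.74 on 1T-2, 6.75 on 1T-4, 6.30 on 1R-4, 5.44 on 1T-3 and 5.36 on 1T-1, and 6.52, 6.65, 6.88, 7.10 and 7.52 on the metformin arrays. The control range thus enclosed every metformin array, and the log2 fold change was 0.05 ± 0.65 (limma adjusted p = 0.978), with its sign depending on the processing.

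The myogenic regulators were dim. Myog, myogenin, the factor of fibre differentiation, was detected on 3 of 6 control and all 5 metformin arrays, from 4.34 to 5.74 and from 5.07 to 5.46 (0.38 ± 0.25, limma adjusted p = 0.439). Myod1, the determination factor, was detected on 1 array of each group, and its levels of 5.50 and 5.56 on the controls 1R-4 and 1T-1 were the highest of the 11 arrays. Trim63, a ubiquitin ligase of muscle wasting, was detected on 2 arrays of each group, between 4.34 and 4.97. Beyond Myog, no regulator of the set had a test in SAT.

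Across the set, metformin against control in SAT gave 0 of 31 members at an adjusted p under 0.05 with limma, against 0% of all 9360 genes. At an unadjusted p under 0.05, 4 of 31 members were higher, Mybpc2, Myoz1, Mylpf and Myl1, against 8.91% of all genes, and 0 were lower, against 7.46%. No member had all metformin arrays above or all below the controls, against 1.65% and 1.88% of all genes. The log2 fold change was above 0 for 29 of 31 members and above 1 for 24 of 31, against 53.7% and 1.46% of all genes, and above 2 for 8 of 31, against 0.171%. The median was 1.49 for the members and 0.03 for all genes. The same controls were low in nearly every member, so that these counts are not 31 independent observations.

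These counts over measured members carry the filter with them. Of the 31 members, 17 (54.8%) passed only because they were detected on all metformin arrays, against 22.8% of all genes, and a filter of this kind favours members that were higher in metformin. The 14 that passed through both groups had a median log2 fold change of 1.69, from -0.62 for Tnnt1 to 2.58 for Mylpf, with 13 of 14 above 0, against a median of -0.03 over the 7177 genes that passed through both groups. With no filter at all, the 38 members with a probe had a median of 1.40 and all genes one of -0.02.

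The count of calls depended on the arrays in the model. With all 41 arrays of the series in one model of 10 groups, 12 of 32 members were called higher and 0 lower, against 5.03% and 3.38% of 12388 genes: Casq2, Ckm, Eno3, Mybpc2, Myl1, Myl4, Mylpf, Myoz1, Pgam2, Ryr1, Tnni2 and Tnnt3. At their brightest probe 10 of the 12 were called, and Myl1 and Ryr1 only at a dimmer one. This model took the spread and the filter from all 41 arrays, so that both the standard errors and the genes tested changed. At the same probe the fold changes were equal in both models: for Mylpf the standard error went from 1.14 to 0.69, and the limma adjusted p to 0.0238. For 28 of the 32 members the brightest probe was that of the SAT model, but for Tpm2, Myog and Ldb3 it was another, with log2 fold changes of 0.25, 0.031 and -0.0016. Myh7, tested only here, had -0.11 ± 0.22 (limma adjusted p = 0.822). The median standard deviation of the members was 2.35 over the SAT controls and 0.55 over the SAT metformin arrays, against 0.082 to 0.220 in the 8 liver and brain groups that entered this estimate. The 41-array model was not fitted without the dim control arrays. The model of the SAT arrays alone called 0 of 31 members with all 11 arrays, and also without the 2 dim controls 1R-4 and 1T-1. In that model the median over the members was 0.54 without both dim controls and 0.97 without 1R-4 alone.

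**Figure D3:**
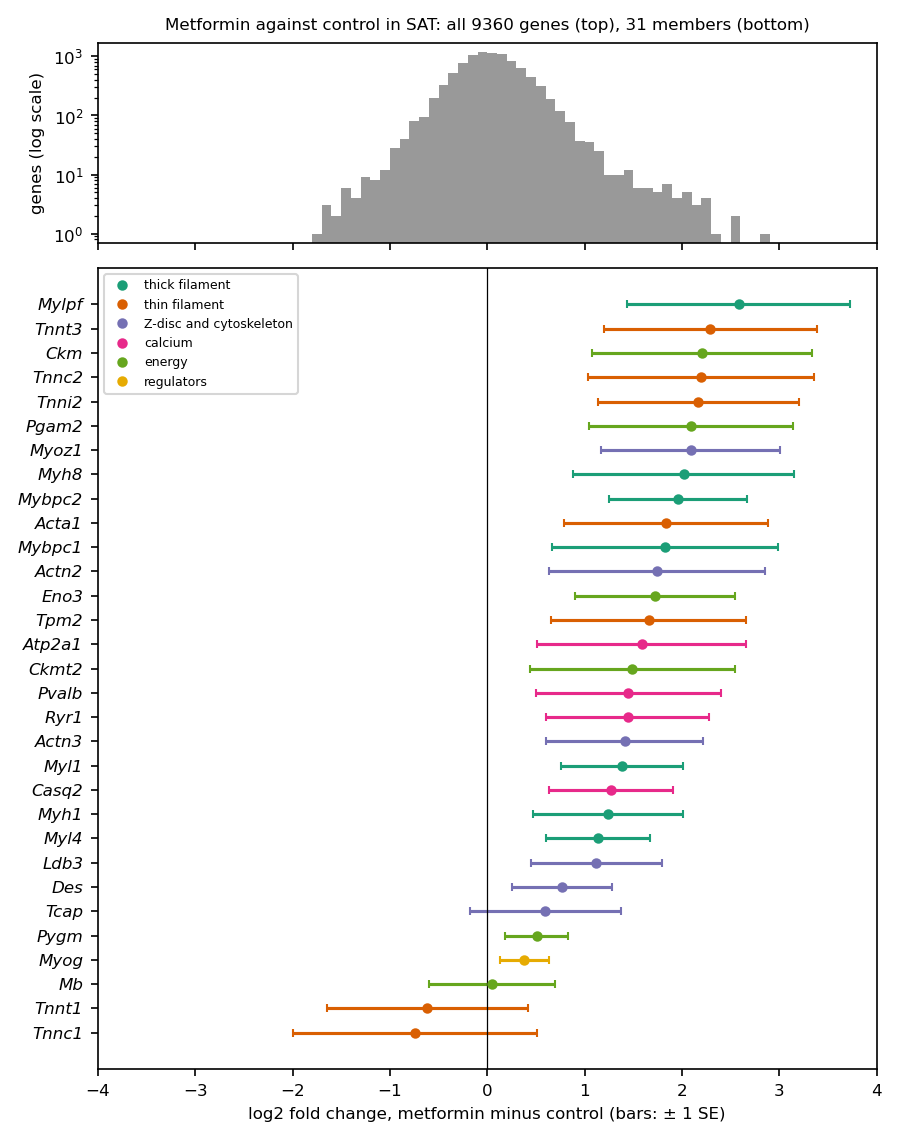
Log2 fold change, metformin minus control in SAT. The top panel is a histogram over the 9360 genes measured (log scale), the bottom panel gives each of the 31 members with ± 1 SE, coloured by role; 29 of 31 members lie above 0, with Tnnt1 and Tnnc1 below.

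By fibre type, the 10 measured fast-fibre members had log2 fold changes from 1.24 for Myh1 to 2.58 for Mylpf, with a median of 2.03 and 0 calls. The 3 measured slow-fibre members, Tnnc1, Tnnt1 and Casq2, ran from -0.75 to 1.27, also with 0 calls. The filter bears on both ranges. Of the fast-fibre members, Myh1, Tnnt3, Mybpc2, Actn3, Pvalb and Myoz1 passed only through the metformin arrays, and so did Tnnc1 and Casq2 of the slow-fibre members. The slow-fibre members Myh7 and Tnni1, detected on control arrays only, did not pass. Mybpc1, the slow form of myosin-binding protein C, stood in neither list, and its 1.83 lay within the range of the fast-fibre members. The mean of the fast-fibre members was highest among the controls on 1T-4, at 11.02, whereas that of the slow-fibre members was highest on 1R-1, at 11.16, with the 5 metformin arrays between 6.23 and 7.66. The difference between the fibre types in the response to treatment was not tested.

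Genes outside the set that are also typical of skeletal muscle varied between the SAT arrays too. Of 50 further muscle genes, 30 were measured in SAT, 27 had a positive and 3 a negative log2 fold change, with a median of 1.11 and 0 calls. Of all genes, 53.7% had a positive one. These 30 passed the same filter as the members, which favours genes that were higher in metformin. How many passed only through the metformin arrays was not counted, here or for the lists below. Their mean was lowest on 1R-4, at 5.14, and highest on 1R-1, at 8.83, with the metformin arrays at most at 8.59. Ttn, the giant sarcomere protein titin, was 12.58, 11.38 and 11.40 on 1R-1, 1T-2 and 1T-4, and 6.55, 8.45 and 7.09 on 1R-4, 1T-1 and 1T-3. Sln, sarcolipin, the inhibitor of the calcium pump, had the highest fold change of this list, 2.31 ± 1.18 (limma adjusted p = 0.346), and Actc1, the actin of heart and fetal skeletal muscle, the smallest p, with 2.25 ± 0.93 (limma adjusted p = 0.270).

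Heart and smooth muscle were looked at to place these transcripts. Of 13 genes typical of heart, 1 was measured, Myl3, which slow skeletal fibres share, at 11.95 on 1R-1, 8.84 on 1T-2 and at most 6.43 elsewhere. Of the other heart genes, Tnnt2 had no probe of its own, and Myl7, Tnni3, Nkx2-5, Nppb, Mybpc3, Hcn4 and Pln were detected on none of the 11 SAT arrays. Myh6 was detected on up to 3 control and 4 metformin arrays at a probe, Myl2 on 3 and 2, Nppa on 1 control and Ryr2 on 1 metformin array. Of 9 smooth muscle genes, 7 were measured, with a median log2 fold change of -0.21, 0 calls and list means between 7.46 and 8.33 on the controls and between 7.66 and 7.93 on the metformin arrays. Acta2, smooth muscle actin, lay between 12.01 and 12.89 on all 11 arrays, and was not low on 1T-1 and 1T-3. On 1R-4, where the smooth muscle mean was lowest, at 7.46, Acta2 was 12.17, above only 3R-5.

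Markers of other cells differed between the SAT arrays as well, and their part in the muscle values was not tested. Of 9 measured brown adipocyte genes, 8 had a positive log2 fold change, 7 of them at an unadjusted p under 0.05 (8.91% of all genes were higher at this threshold), with a median of 1.24 and 0 calls. Ucp1, which uncouples respiration in brown fat, was 7.38, 6.89 and 9.64 on the 3 controls low in muscle genes, 10.99, 12.42 and 10.46 on the 3 others, and 13.66, 11.77, 11.46, 12.67 and 12.70 on the metformin arrays (2.82 ± 0.87, limma adjusted p = 0.189). Unlike the members, Ucp1 was highest on 10K-2. Fabp3, the fatty acid carrier of muscle and brown fat, was 5.85, 6.77 and 7.41 on those 3 controls. On the 3 other controls it lay between 10.11 and 12.26, and on the metformin arrays between 10.92 and 12.17. The groups thus overlapped, and the control 1R-1 was the highest array for Fabp3. Because muscle also makes Fabp3, the brown adipocyte list does not stand for brown adipocytes alone. Of the 70 measured respiratory chain genes 62 had a positive log2 fold change, with a median of 0.25 and 0 calls, and 19 were higher and 0 lower at an unadjusted p under 0.05, against 8.91% and 7.46% of all genes. All metformin arrays lay above every control for 3 of the 70, Atp5md, Cox7b and Ndufb2 (limma adjusted p = 0.144 each), against 1.65% of all genes. The list means lay between 11.22 and 11.72 on the controls and between 11.40 and 12.04 on the metformin arrays.

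The other lists are given for comparison. The 11 measured white adipocyte genes had a median of -0.20 with list means between 10.80 and 11.57, and 3 were lower at an unadjusted p under 0.05, against 7.46% of all genes. The 7 measured fibroblast genes had a median of 0.13, the 3 hepatocyte genes of 0.43 and the 3 neuron genes of 0.44, each with 0 calls. The 6 measured keratinocyte genes had a mean of 10.95 on the metformin array 3R-1 and between 6.07 and 7.72 on the other 10 arrays. On 3R-1 the mean of the 31 members was 10.07, between those of 3R-5 and 3R-2.

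**Figure D4:**
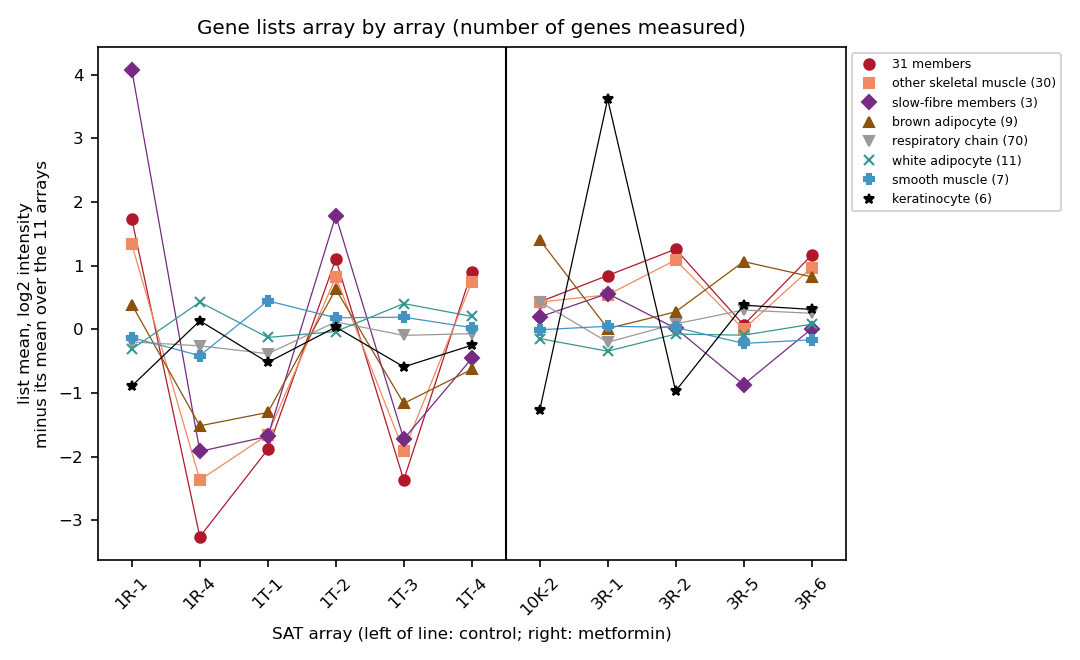
Mean log2 intensity of 8 gene lists on each SAT array, each minus the list's own mean over the 11 arrays; thin lines join the points of a list within a group and carry no order. The 31 members and the other skeletal muscle genes are lowest on 1R-4, 1T-3 and 1T-1, where the brown adipocyte genes are lowest too; white adipocyte and smooth muscle genes vary much less, and keratinocyte genes stand out on 3R-1.

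Liver and brain served as reference for tissue without skeletal muscle fibres. The mean of the 31 members lay between 4.85 and 5.11 on the 24 liver arrays and between 5.00 and 5.15 on the 6 brain arrays. On the SAT arrays it lay between 5.96 and 10.95, so that the lowest SAT array was above every liver and brain array. These 31 were chosen by detection in SAT, at the probe brightest there, which favours SAT in this comparison. Of the 38 genes with a probe, the liver arrays detected between 9 and 16, the brain arrays 14 or 15, and the SAT arrays between 16 on 1R-4 and 36 on 1R-1 and 1T-2. At the probe chosen in SAT, 20 of the 38 were detected on none of the 24 liver arrays.

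Control SAT against control liver gave 29 of 31 members higher and 0 lower, against 39.4% and 28.5% of 10042 genes. At the chosen probe 20 of the 31 were detected on no control liver array. The 31 had been taken as measured in SAT, so this choice favoured a higher level in SAT, unlike the share over all genes. The members not called were Tnnt1 and Tnnc1, which liver also showed: Tnnc1 lay at 6.97 ± 0.47 in control liver (SD, n = 6) and 7.30 ± 3.23 in control SAT, and Tnnt1 at 7.30 ± 0.27 and 8.11 ± 2.64. Both were detected on 24 of 24 liver arrays. Where no control liver array detected the probe, the ratio is a lower bound, formed against the lowest detected signal of each liver array. By this bound Myl1 was at least 413-fold higher in control SAT (limma adjusted p = 9.88e-15) and Acta1 at least 127-fold (2.48e-09). Tnnc2 was at least 74.7-fold higher (limma adjusted p = 1.32e-07), but Ckm at least 11.1-fold (6.87e-05) and Casq2 at least 1.71-fold (0.0081). The model of the HFD arrays gave these p-values and the 29 calls, with a spread shared by its SAT and liver groups. The median standard deviation of the members was 2.35 over the SAT controls and 0.55 over the SAT metformin arrays. In HFD liver it was 0.14 for controls and 0.22 for metformin. The shared spread thus understates that of the SAT controls, and the p-values are too small to that extent. A test with separate spreads was not run.

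Some members had a level of their own in the reference tissues. In liver, Myl4 lay between 6.43 and 7.91 and Des between 5.17 and 7.16 on all 24 arrays, and Mylpf was detected on 23 of 24 at its SAT probe. In brain, Pvalb, which also marks a class of inhibitory neurons, lay between 7.22 and 7.61, Actn2 between 6.96 and 7.76, and Acta1 had a median of 6.82, each detected on all 6 arrays. The brain arrays of Pvalb thus lay above the SAT controls 1R-4, 1T-1 and 1T-3, at 5.06, 6.62 and 7.03. At the SAT probe, Ckm, Tnnc2, Tpm2 and Ckmt2 were detected on no liver and no brain array.

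**Figure D5:**
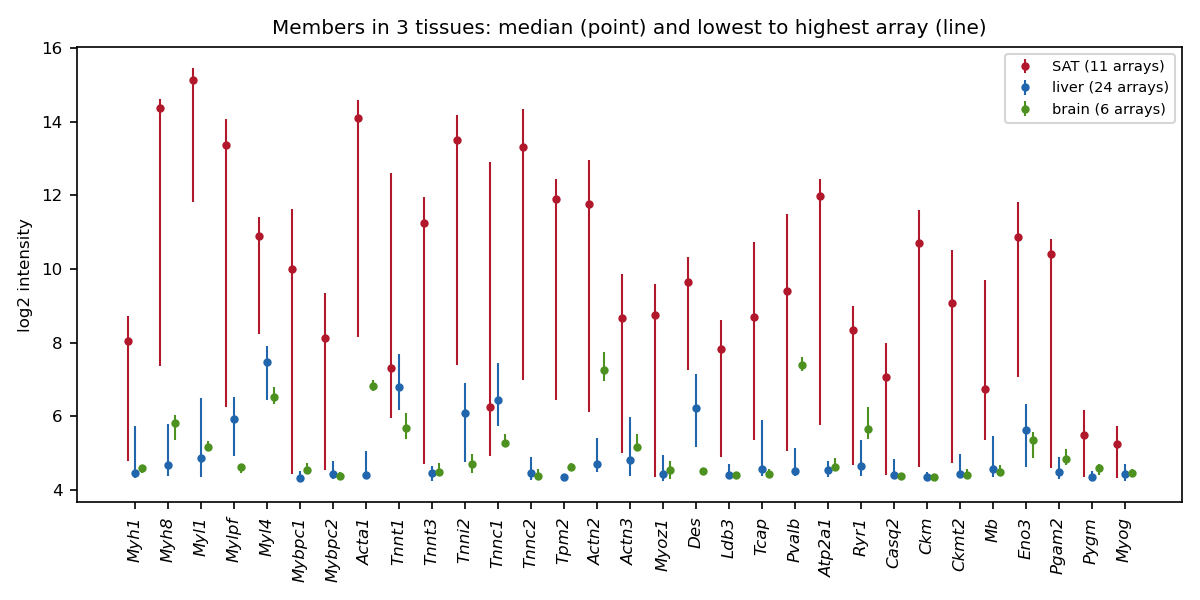
Median (points) and lowest to highest array (lines) of the 31 members in SAT (11 arrays), liver (24 arrays) and brain (6 arrays), on the log2 intensity scale; levels are read within a gene. The SAT lines are long and reach well above liver and brain for nearly all members, whereas Tnnt1 and Tnnc1 have SAT medians close to liver.

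In liver and brain, treatment was tested with the HFD liver and the RD brain arrays, not with RD liver. In HFD liver 15 members were measured and 0 were called with limma, against 1.01% of 10046 genes. Mylpf and Myl4 had unadjusted p under 0.05 there, against 7.85% of all genes higher at this threshold, with log2 fold changes of 0.31 ± 0.15 and 0.43 ± 0.19 (limma adjusted p = 0.279 and 0.245). In RD brain 14 members were measured and 0 were called with limma, against 0.00935% of 10695 genes, and 0 had an unadjusted p under 0.05, against 1.79%. The difference between the SAT and the liver response to metformin was called for 0 of 31 members, against 0% of 10042 genes, in a model that did not pair the tissues of an animal. The smallest limma adjusted p of this difference was 0.203, for Mybpc2, at 1.99 ± 0.73. At an unadjusted p under 0.05, 4 of 31 members had a positive difference, against 7.91% of all genes.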

How the data were processed

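The arrays were Illumina bead arrays of the Mouse WG-6 v2 design. The deposited non-normalized table holds 1 intensity and 1 detection p-value per probe and array, per the file headers. The deposited series values are log2-scale values that the authors made with lumi by variance stabilization and robust spline normalization, and each array's values kept the rank order of its intensities. Per the study's methods, a metformin SAT array of low signal was discarded before the analysis. Gene names came from the platform annotation, updated by gene ID: 34885 probes had 1 symbol, 18 several and 10378 none.

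Intensities of all 41 arrays were background corrected with the detection p and quantile normalized by the neqc function (offset 16; limma 3.58.1 under R 4.3.3). Probes detected (p under 0.05) on every array of a group in the model were kept, 15848 in SAT. Groups were compared with lmFit, contrasts.fit and eBayes, with Benjamini-Hochberg adjustment over all kept probes and a threshold of 0.05. The models held 11 SAT arrays, 23 HFD arrays, 24 liver arrays or 6 brain arrays. The brightest kept probe gave a gene's value, and a gene was called if any kept probe passed. The method was tested on simulated data. Nothing in the labels says whether animals were littermates, so p-values measure the spread between these samples, and array numbers limit the precision.

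The members and lists were chosen with earlier results of these data known. The genes given with every value are a fixed selection of the best-known members, those with the 3 highest and 3 lowest fold changes, and any called or non-overlapping; for other lists the genes of smallest p could be named. Alternatives concerned normalization, filter, weights, blocks, model size and arrays left out. SAT and liver arrays with the same number in the labels were taken as the same animal. Their deviations from the group means correlated with r between 0.033 and 0.349 over 11 pairs, across probes. No values are given for pairs of different numbers, so these correlations do not test the pairing.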

Additional observations from a re-analysis of the deposited data

Results flagged for a closer look

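Of 88 groups examined (31 members and 13 gene lists, each over the 6 control and the 5 metformin SAT arrays), 1 held an array far from the others of its group, and chance alone sets about 1 in 20 such groups apart. The mean of the fibroblast list was 12.06 on the control array 1T-4, against 11.50 to 11.66 on the other 5 controls. No member was set apart in this way, also not Tnnc1 on 1R-1. In the keratinocyte list the metformin array 3R-1 stood at 10.95 but did not reach the limit.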

How the results depend on the processing

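With limma, 0 of the measured members were called in SAT in the main analysis and under 22 of 23 alternatives, and 12 were called with all 41 arrays in 1 model of 10 groups. Among those 22, array weights called 467 of 9360 genes higher and 317 lower. The others called at most 2 genes, and the main analysis 0. The median log2 fold change of the members was 1.49 and ranged from 0.97 (without 1R-4) to 2.08 (without 1R-1) when each array was left out in turn. It was 0.84 with the authors' log2 values, 1.08 with array weights, 0.54 without both dim controls and 2.09 with median centring, where the median of all genes was 0.55. At the probes chosen in SAT, signs turned in 3 members; with all 41 arrays the brightest probe of Ldb3 was another one, and its log2 fold change went from 1.12 to -0.0016. Mb went from 0.05 to -0.19 with the authors' log2 values, -0.078 without background correction, -0.069 with an offset of 50 and -0.47 without both dim controls. When each array was left out in turn, Mb ranged from -0.25 (without 1T-1) to 0.62 (without 1R-1), Tnnt1 from -1.05 (without 1T-3) to 0.28 (without 1R-1) and Tnnc1 from -1.22 (without 1R-4) to 0.38 (without 1R-1). The cause was not tested. Control SAT against control liver gave 29 members, and 28 with median centring. The replicate block (animal) left 29 calls there and 0 for the difference between the SAT and liver responses, so it changed no call of a member. For that difference the block called 131 of 10042 genes higher and 142 lower, against 0 without it. The animal code as a random block gave 0 calls. In HFD liver no alternative called a member, nor did those for RD brain, which were chosen after seeing the data. Members near background, such as Myog, Pygm and Myod1, have levels limited by signal over background.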
